A study of Caenorhabditis elegans with 20 samples.

Results

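The insulin receptor to DAF-16 pathway was examined gene by gene in day 1 adult Caenorhabditis elegans. Its 8 core genes (daf-2, age-1, pdk-1, akt-1, akt-2, sgk-1, daf-18 and daf-16) were taken by symbol from 46778 genes, and all 8 passed the filter on low values. The series asked what each granulin does when it is expressed without progranulin, a secreted precursor that is cleaved into granulins and is encoded in this nematode by pgrn-1. Total RNA of whole animals, synchronised by egg lay, was sequenced in 20 libraries, with 4 for every strain. The 5 strains comprised the wild type N2, the pgrn-1(-) strain CF3050 (the null), and AWK33, AWK43 and AWK107, which carry pgrn-1(-) together with granulin 1(+), granulin 2(+) and granulin 3(+). The null and the 3 granulin strains therefore share the pgrn-1 loss, no strain carries a granulin on a wild-type background, and each granulin is represented by a single strain. The labels give neither the promoter behind each granulin nor whether replicates were grown separately, so a p-value reflects the spread between these libraries, which may be technical. Libraries are named by strain and by a number given in accession order. Letters in the sample names, whose meaning is unstated, divide the strains into a set of wild type, granulin 1 and granulin 3 and a set of the null and granulin 2.

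Insulin-like peptides bind DAF-2, a receptor tyrosine kinase. DAF-2 signals through the phosphoinositide 3-kinase AGE-1 and the kinase PDK-1 to AKT-1, AKT-2 and SGK-1, while the lipid phosphatase DAF-18 removes the lipid that AGE-1 makes. AKT kinases phosphorylate the FOXO transcription factor DAF-16 and keep it out of the nucleus. Lower signalling frees DAF-16, which raises its class I targets, many of them in stress defence, while class II targets fall and depend in part on PQM-1. The pathway is known for its control of lifespan, dauer arrest and stress resistance in this animal. Most of this control acts on proteins, and the data here are levels of RNA.

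As a check of the labels, pgrn-1 reads numbered 527 to 871 in wild type. They numbered 6 to 32 in the null libraries and at least 7283 in every granulin library. Totals ran from 48279370 to 128776517 reads per library. Some libraries stood apart. The slope of level on exon length, taken across protein-coding genes (log2 level against log2 length, each gene relative to its own mean), was lowest in granulin 1 replicate 3 (-0.80), granulin 2 replicate 2 (-0.34), granulin 3 replicates 2 (-0.31) and 3 (-0.21), and null replicate 1 (-0.25). Long genes read low relative to short ones in these 5 libraries. Ribosomal RNA took over 20% of the reads in wild type replicate 4 (44.8%), granulin 1 replicate 3 (25.9%), and granulin 2 replicates 3 (52.7%) and 4 (25.02%). The 12 libraries with neither feature are called the other 12 below, and they hold 1 library of granulin 2 and 2 of granulin 3.

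No member differed between any pair of strains at the threshold, an adjusted p of 0.05 from limma with Benjamini-Hochberg adjustment over all 15737 genes tested. Against wild type, 0 of 8 members were called in the null, where 0.197% of all genes were called. Against the null, 0 of 8 were called in granulin 1, 2 and 3, beside 0.47%, 21.6% and 12.7% of all genes. Against wild type, the same 3 strains called 0 of 8 members and 0.324%, 18.3% and 11.2% of all genes. Among the granulin strains, 0 of 8 members were called for granulin 2 against 1 (18.9% of genes), granulin 3 against 1 (5.58%) and granulin 3 against 2 (5.39%). The F test for any difference among the 5 strains called 0 of 8 members and 21.5% of genes. At an unadjusted p under 0.05, 1 member passed in granulin 2 against the null and 1 in granulin 2 against granulin 1, akt-2 both times, and 0 passed in the other 8 comparisons. Of all 15737 genes, 4926 and 4603 passed at this level in those comparisons, and 1176 to 4378 in the other 8. Comparisons that share a strain share its libraries and are not independent of each other.

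The precision behind these results differed widely between members. For akt-2 the standard error (SE) of a strain difference was 0.22 on the log2 scale, at the 0.407th percentile of all genes tested, so its unadjusted 95% interval reached 0.46 either side, or 1.37-fold. The SE was 0.30 for sgk-1 and 0.58 for akt-1, against a median of 0.46 over all genes. It rose to 0.67 for daf-16, 0.76 for pdk-1 and daf-18, 0.89 for age-1 and 0.96 for daf-2. For daf-2 the interval in this fit reached 4.04-fold in either direction, and it narrowed with the length slope of each library as a covariate, as given below.

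**Figure D1:**
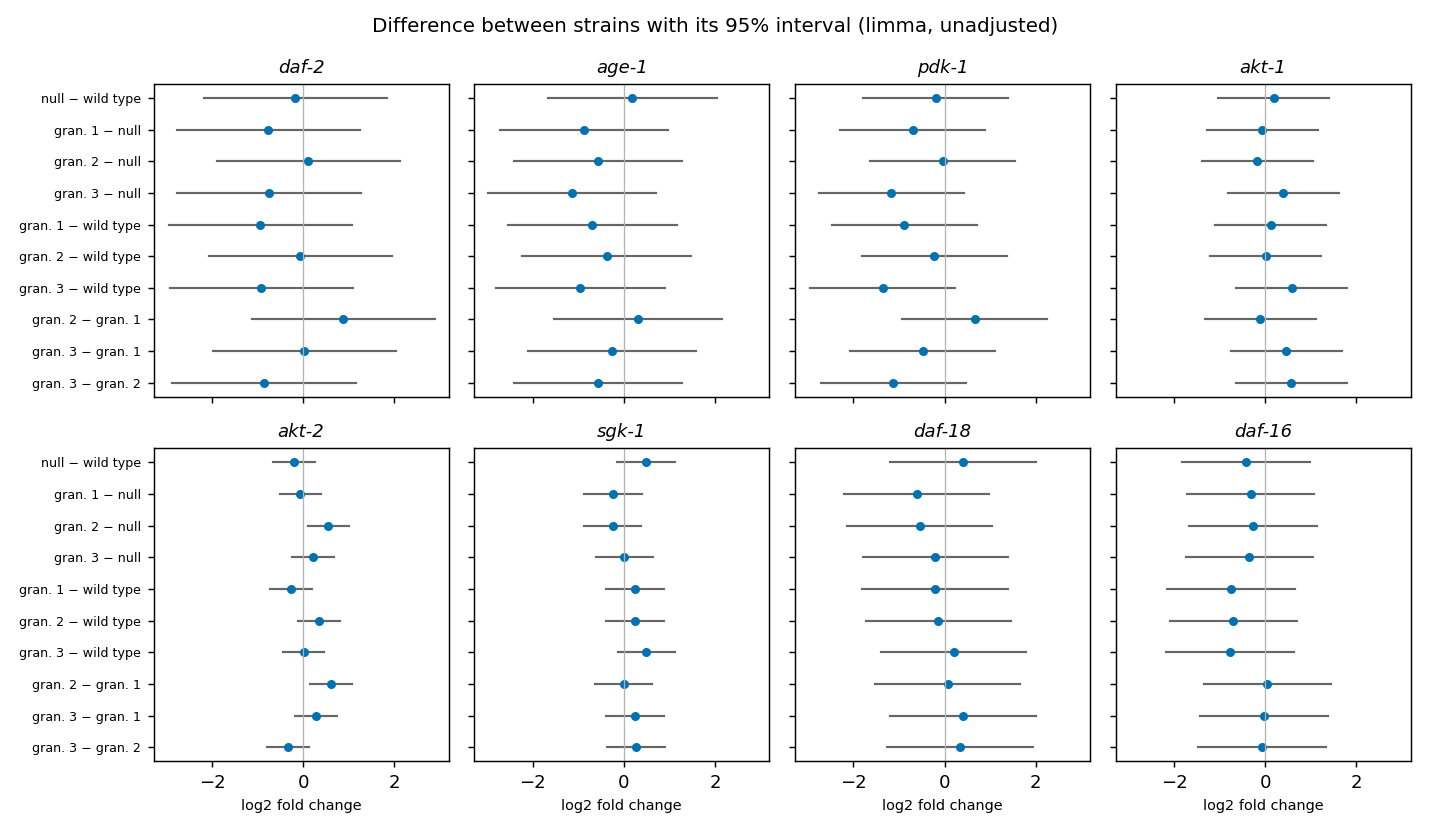
Log2 fold change of each of the 8 genes in the 10 strain comparisons (points) with its unadjusted 95% interval (lines) from limma, 4 libraries per strain. Intervals are narrow for akt-2 and sgk-1 and wide for daf-2, and only akt-2 in granulin 2 against the null and against granulin 1 has intervals that leave out 0.

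On a scale of CPM (read counts relative to the library total, scaled between libraries) per kilobase of exon, the members spanned a wide range of levels. The median over 20 libraries was highest for daf-18 at 227.5, the 97.2nd percentile of protein-coding genes tested, followed by akt-1 at 104.6 and daf-16 at 42.2. The receptor and its lipid kinase were close, with age-1 at 24.7 and daf-2 at 22.7, and age-1 was above daf-2 in only 12 of 20 libraries. sgk-1 (7.72) and pdk-1 (6.81) could not be ordered either, since sgk-1 was higher in 11 of 20. akt-2 was lowest at 2.36. daf-18 exceeded akt-1 in 18 libraries, akt-1 exceeded daf-16 in 19 and daf-16 exceeded age-1 in all 20. Whole-animal RNA holds all tissues, so fewer cells of a type and less RNA per cell cannot be told apart.

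daf-2, the insulin receptor gene, lies on chromosome III (2994514 to 3040846, minus strand, build ce11) with 8296 exon bases, the most of the 8. In CPM, scaled between libraries and given here and below for replicates 1, 2, 3 and 4, the wild-type libraries had 178, 267, 159 and 103. The null libraries had 46.2, 238, 200 and 216. Granulin 1 had 187, 196, 6.24 and 246, granulin 2 had 328, 45.7, 119 and 366, and granulin 3 had 191, 40.5, 40.7 and 190. Every strain overlapped every other, and the lowest values of the null and the granulin strains fell in the 5 libraries with the lowest length slopes, where daf-2 ran from 6.24 to 46.2 CPM. In the other 12 libraries it ran from 158.6 to 327.6 CPM. The strain means were 176 ± 68.1 CPM in wild type and 175 ± 87.3 in the null (SD, n = 4), a log2 difference of -0.17 ± 0.96 (SE, limma adjusted p = 0.985). That difference changed sign, to 0.38 ± 1.01, without null replicate 1. The largest difference of daf-2 was granulin 1 against wild type at -0.94 ± 0.96 (adjusted p = 0.877), and it became 0.32 ± 0.72 without granulin 1 replicate 3.

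age-1, the catalytic subunit of phosphoinositide 3-kinase (chromosome II, 11519328 to 11527054, minus strand), followed the same libraries. Wild type had 102, 115.3, 91.4 and 48.6 CPM, and the null 34.6, 143, 137 and 128. Granulin 1 had 111, 92.4, 5.14 and 145, granulin 2 had 112, 23.4, 48.0 and 144, and granulin 3 had 86.9, 12.28, 32.1 and 108. No strain was apart from another, and the lowest value was again granulin 1 replicate 3, 21.7 times below the median of the other 12. Its difference between null and wild type was 0.19 ± 0.89 (SE, limma adjusted p = 0.980) and between granulin 3 and the null -1.14 ± 0.89 (adjusted p = 0.469). With the length slope of each library as a covariate, the granulin 3 difference was -0.68 ± 0.24 and passed the threshold (adjusted p = 0.0407).

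pdk-1 encodes the kinase that activates the AKT and SGK kinases (chromosome X, 1321344 to 1327986, plus strand). It had 18.96, 32.1, 18.4 and 11.9 CPM in wild type and 8.07, 29.6, 18.2 and 17.9 in the null. Granulin 1 had 15.7, 21.4, 2.17 and 15.5, granulin 2 had 33.5, 4.26, 10.4 and 47.4, and granulin 3 had 17.4, 4.04, 3.11 and 13.9. Granulin 2 held both the highest value of all 20 libraries and one of the lowest. The null differed from wild type by -0.19 ± 0.76 (SE, limma adjusted p = 0.976). The largest difference was granulin 3 against wild type at -1.36 ± 0.76 (adjusted p = 0.353), with overlapping libraries. Granulin 3 against the null was -1.17 ± 0.76 (adjusted p = 0.378), and granulin 3 against granulin 2 was -1.13 ± 0.76 (adjusted p = 0.443). With the length slope as a covariate these last were -0.78 ± 0.27 (adjusted p = 0.0373) and -0.87 ± 0.27 (adjusted p = 0.0340).

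The AKT genes differed from each other in level and, over all 20 libraries, in steadiness. akt-1 (chromosome V, 10248905 to 10252845, plus strand) had 327, 252, 257 and 41.1 CPM in wild type and 98.8, 236, 267 and 237 in the null. Granulin 1 had 329, 242, 59.7 and 259, granulin 2 had 184, 210, 147 and 160, and granulin 3 had 242, 240, 343 and 222. Its low values were only in part those of daf-2. akt-1 was lowest in wild type replicate 4, the library with 44.8% ribosomal RNA, then in granulin 1 replicate 3 and null replicate 1. Each of these was also the lowest library of its strain for daf-2. Unlike daf-2, akt-1 stayed near its usual level in the low-slope libraries of granulin 2 and granulin 3. All 4 granulin 3 libraries were above all 4 of granulin 2, and these strains did not overlap in 13.3% of genes tested. That difference was not called, and the null differed from wild type by 0.19 ± 0.58 (SE, limma adjusted p = 0.967), which turned to -0.50 ± 0.48 without wild type replicate 4. The largest difference, granulin 3 against wild type at 0.59 ± 0.58 (adjusted p = 0.667), turned to -0.10 ± 0.48 without the same library. The end of akt-1 overlaps an exon of rop-1 on the other strand (rop-1 spans 10252838 to 10255055 and had 3004 to 20271 reads), and whether counting used strand is not stated in the labels.

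akt-2 (chromosome X, 14147700 to 14152070, plus strand), the second AKT gene, was the steadiest member over all 20 libraries, with a range of 4.18 to 8.79 CPM. This did not hold in the other 12 libraries, where its coefficient of variation was 22.64%, beside 15.93% for akt-1. Wild type had 5.42, 5.70, 6.78 and 5.80 CPM. The null had 4.55, 5.53, 5.24 and 5.12, and granulin 1 had 4.18, 5.22, 5.95 and 4.36. Granulin 2 had 8.79, 7.01, 6.49 and 7.89, and granulin 3 had 5.30, 4.86, 6.49 and 7.39. Every granulin 2 library was above every null library, and above every granulin 1 library; the groups did not overlap, in either direction, in 30.3% and 19.6% of genes tested. The log2 differences were 0.55 ± 0.22 against the null (SE, limma adjusted p = 0.0817) and 0.62 ± 0.22 against granulin 1 (adjusted p = 0.0564), both short of the threshold. Against granulin 1 the difference passed without granulin 1 replicate 3 (0.71 ± 0.21, adjusted p = 0.0239) and without the 5 low-slope libraries (0.76 ± 0.23, adjusted p = 0.0262). With the length slope as a covariate both passed, at 0.55 ± 0.19 (adjusted p = 0.0273) and 0.61 ± 0.19 (adjusted p = 0.0187). The comparison with the null is within 1 set of label letters, and the comparison with granulin 1 is between sets, whose meaning is not given. Between the null and wild type akt-2 differed by -0.21 ± 0.22 (adjusted p = 0.847).

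sgk-1 encodes a kinase related to AKT that also acts downstream of PDK-1 (chromosome X, 16254842 to 16262122, minus strand). Wild type had 7.76, 8.17, 8.66 and 19.01 CPM, and the null 15.6, 14.98, 12.2 and 14.1. Granulin 1 had 9.39, 10.1, 14.9 and 14.6, granulin 2 had 13.1, 11.7, 10.9 and 12.1, and granulin 3 had 13.6, 9.76, 13.1 and 23.7. Wild type replicates 1, 2 and 3 were the lowest of all 20, and wild type replicate 4 was the second highest. The null differed from wild type by 0.48 ± 0.30 on the log2 scale (SE, limma adjusted p = 0.641), and by 0.79 ± 0.27 without wild type replicate 4, still uncalled (adjusted p = 0.286). The difference of granulin 3 from wild type was 0.50 ± 0.30 (adjusted p = 0.409). This difference passed when the libraries with over 20% ribosomal RNA were left out (0.81 ± 0.26, adjusted p = 0.0490). It also passed on the deposited scale (1.30 ± 0.40, adjusted p = 0.0218), on which the median of all genes moved by 0.784 in the same comparison.

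daf-18, which opposes AGE-1, was the most abundant member (chromosome IV, 420011 to 425177, minus strand). Wild type had 969, 813, 800 and 128 CPM, the null had 372, 882, 934 and 811, and granulin 1 had 985, 827, 61.1 and 916. Granulin 2 had 662, 382, 344 and 633, and granulin 3 had 717, 338, 868 and 674. Like akt-1 it was lowest in wild type replicate 4 and granulin 1 replicate 3, with lower values also in null replicate 1, granulin 2 replicates 2 and 3 and granulin 3 replicate 2, and in the other 12 libraries it varied only from 661.7 to 985.2. The null differed from wild type by 0.40 ± 0.76 (SE, limma adjusted p = 0.944), and by -0.28 ± 0.73 without wild type replicate 4. Its largest difference, granulin 1 against the null at -0.61 ± 0.76 (adjusted p = 0.886), turned to 0.36 ± 0.58 without granulin 1 replicate 3.

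daf-16, the transcription factor at the end of the pathway (chromosome I, 10750498 to 10776703, plus strand, 11 annotated transcripts), had 189, 200, 159 and 117 CPM in wild type and 61.4, 154, 148 and 154 in the null. Granulin 1 had 178, 157, 18.9 and 167, granulin 2 had 178, 39.96, 72.4 and 196, and granulin 3 had 177, 43.3, 61.3 and 176. The values sum all isoforms. In the other 12 libraries daf-16 varied from 147.7 to 200.3 CPM, with a coefficient of variation of 9.38%, the smallest of the 8 members there. The null differed from wild type by -0.42 ± 0.67 (SE, limma adjusted p = 0.921). Its largest difference was granulin 3 against wild type at -0.77 ± 0.67 (adjusted p = 0.601). With the 5 low-slope libraries left out that difference was 0.12 ± 0.35.

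**Figure D2:**
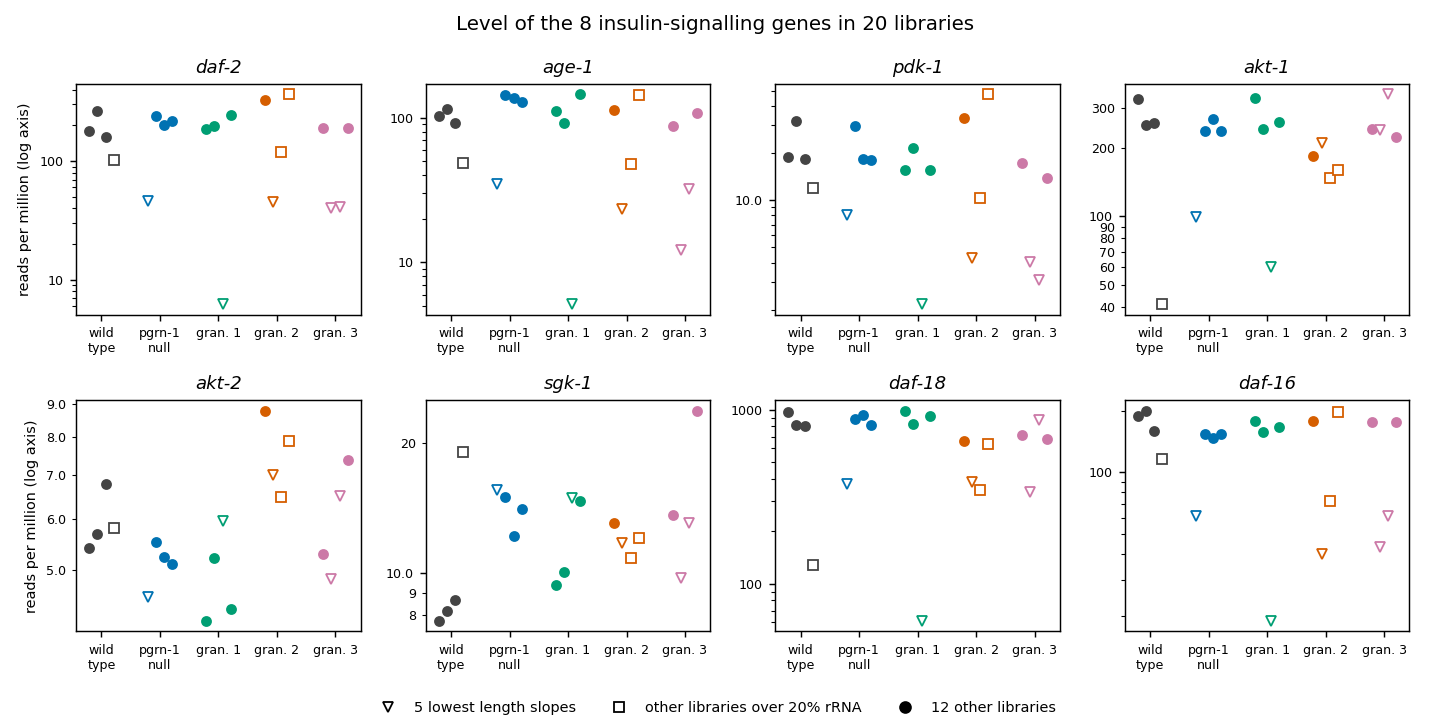
CPM of each of the 8 genes (log axis) in the 20 libraries, by strain, 1 point per library. Open triangles are the 5 libraries with the lowest length slopes and open squares the other libraries with over 20% ribosomal RNA. daf-2, age-1, pdk-1 and daf-16 have their lowest values in the triangles, and akt-2 and sgk-1 do not. The same 4 genes are also below the filled points in the squares of wild type replicate 4 and granulin 2 replicate 3.

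The members differed in the libraries in which they were low. daf-2, age-1, pdk-1 and daf-16 were low in all 5 low-slope libraries. They were also below the range of the other 12 in wild type replicate 4 and in granulin 2 replicate 3, whose slope was -0.19. In granulin 2 replicate 3 age-1 was -1.22 and daf-16 -1.24 from the median of the other 12 on the log2 scale. The 5 low-slope libraries were lower in germline markers, whose summed level stood at 368 to 924 CPM, beside 2439 to 3712 in the other 12. Their summed oocyte markers stood at 1700 to 3986 CPM beside 11370 to 20330. akt-1 and daf-18 were lowest in wild type replicate 4 and granulin 1 replicate 3. daf-18 was also 2.20 times below the median of the other 12 in null replicate 1, 2.15 times in granulin 2 replicate 2 and 2.43 times in granulin 3 replicate 2. Null replicate 1 was low for akt-1 as well, at -1.32 from the same median on the log2 scale. Wild type replicate 4 stood apart in markers too, with 5997 CPM of muscle markers beside 528 to 1003 in the rest of its strain, 9643 of intestine markers beside 2383 to 2682, and 4795 of oocyte markers beside 12060 to 20330. akt-2 and sgk-1 were not low in these libraries. The part of tissue content, RNA quality or library preparation in these values was not tested. With the length slope as a covariate the SE fell to 0.23 for daf-2 and to 0.18 for daf-16, and changed less for akt-2 (0.19) and sgk-1 (0.28).

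**Figure D3:**
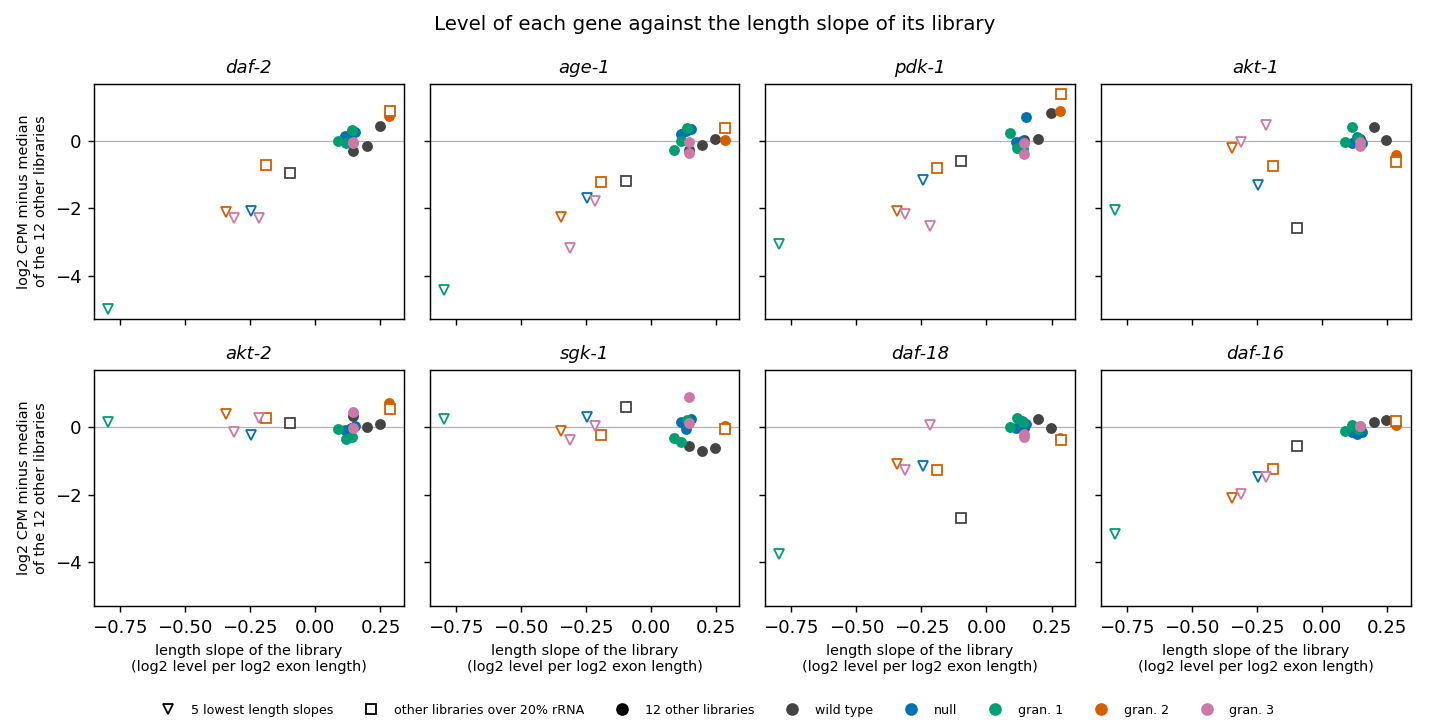
Log2 CPM of each gene in each library, relative to the median of the other 12 libraries, against the length slope of the library. daf-2, age-1, pdk-1 and daf-16 lie lower in libraries of lower slope, down to -4.98 for daf-2 in granulin 1 replicate 3, whereas akt-2 and sgk-1 stay near 0.

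The genes most like each member were taken as those with the highest Pearson correlation of log2 CPM over the 20 libraries, among 14843 genes. For daf-2 these were npp-7 (r = 0.992), pqe-1 (0.991) and F46H5.4 (0.990), for age-1 mrck-1 (0.994), kin-4 and ilcr-2 (both 0.993), and for pdk-1 atg-9 (0.985), F16B12.6 (0.984) and jmjd-2 (0.982). akt-1 was most like ulp-1 (0.987), ufl-1 (0.984) and Y71H2AM.3 (0.980), daf-18 most like lin-3 (0.987), aho-3 (0.986) and T10C6.7 (0.984), and daf-16 most like math-33 (0.990), taf-1 and pitr-1 (both 0.988). Over the other 12 libraries, r for these genes ran from 0.489 (daf-16 with math-33) to 0.955 (akt-1 with ulp-1). akt-2 was most like F53C3.6 (0.830), trak-1 (0.812) and arrd-26 (0.808), and sgk-1 most like acs-14 (0.881), sir-2.2 and F17C11.4 (both 0.837). For these the values over the other 12 were 0.764 to 0.961.

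Around the core, 5 lists of pathway genes were followed: 40 insulin-like ligands (21 tested), 15 regulators on the kinase side (10 tested), 25 regulators of DAF-16 (24 tested), 25 class I targets (22 tested) and 12 class II targets (10 tested). In the null against wild type 0 genes of the 5 lists were called, and likewise in granulin 1 against the null. At an unadjusted p under 0.05, 6 ligands, 0 kinase-side regulators, 4 DAF-16 regulators, 1 class I target and 1 class II target passed in the null, and 0, 0, 1, 1 and 1 in granulin 1. Of all 15737 genes, 1622 passed at this level in the null and 1176 in granulin 1. The genes of smallest limma adjusted p in the null were ins-26 (-1.66 ± 0.41, SE, adjusted p = 0.139), ist-1 (0.735), elt-3 (0.251 by the same test), lys-7 (0.361) and dod-19 (0.388). In granulin 1 they were ins-27 (adjusted p = 0.726), let-363 (0.862), pqm-1 (0.665), dod-3 (0.544) and dod-19 (0.653). List genes were called in granulin 2 and granulin 3.

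In granulin 2 against the null, where 21.6% of all genes were called (2749 higher and 658 lower), 3 class I targets rose, 0 fell and 19 were not called, with a list median of 0.18 on the log2 scale beside 0.04 over all genes. They were sod-5, a superoxide dismutase, djr-1.2, a homologue of DJ-1, and old-1, a receptor-like tyrosine kinase. sod-5 had 91 to 205 reads in the granulin 2 libraries, 1 to 3 in the null and at most 6 in any other library. Its ratio of summed reads was 58.5 to the null (exact 95% interval 28.2 to 146, for counting error only), and the fitted difference was 4.98 ± 0.48 (SE, limma adjusted p = 6.05e-07). sod-5 passed the filter on low genes only through the granulin 2 libraries, where it was high. Its entry into the test and its call therefore rest on the same values, and the call is no separate support. djr-1.2 (1.95 ± 0.54, adjusted p = 0.0123) rested on 13 to 74 reads against 1 to 7, and lost its call without null replicate 2 (adjusted p = 0.0939), on the deposited scale (0.0614) and with a prior count of 0.5 (0.0884). old-1 (1.80 ± 0.53, adjusted p = 0.0172) rested on 4 to 28 reads against at most 3, and lost its call without null replicate 1 (adjusted p = 0.0628) or granulin 2 replicate 1 (0.0578). Of the class II targets 1 of 10 rose, dod-20 (1.62 ± 0.37, adjusted p = 0.00259). Of the kinase-side regulators 1 of 10 rose, eak-6, a phosphatase-like gene found as an enhancer of akt-1 loss (2.81 ± 0.58, adjusted p = 0.00109), on 14 to 58 reads against 1 to 8. None of the 24 DAF-16 regulators was called (1 at an unadjusted p under 0.05, beside 4926 of all 15737 genes). The smallest adjusted p was that of the deacetylase sir-2.1 (-0.83 ± 0.29, adjusted p = 0.0508). Among the ligands 5 rose and 1 fell: the largest differences were ins-19 (-4.81 ± 1.197, adjusted p = 0.00535), ins-37 (3.01 ± 0.58, adjusted p = 0.000521) and ins-26 (2.44 ± 0.41, adjusted p = 0.000127).

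In granulin 3 against the null, where 12.7% of all genes were called (1759 higher and 247 lower), 2 class I targets rose, 1 fell and 19 were not called, with a list median of -0.63 beside 0.07 over all genes. lys-7, a lysozyme, had 111, 65.8, 146 and 113 CPM in granulin 3 and 11.9, 27.95, 11.9 and 8.30 in the null, a difference of 2.96 ± 0.67 (SE, limma adjusted p = 0.00532). old-1 rose from at most 3 reads to 18 to 78 (3.01 ± 0.53, adjusted p = 0.000893). sod-3, the manganese superoxide dismutase used widely as a DAF-16 reporter, fell: it had 0.472, 0.496, 0.409 and 0.519 CPM in granulin 3 and 2.15, 1.45, 1.05 and 1.69 in the null (-1.64 ± 0.46, adjusted p = 0.0229). Although the groups did not overlap, the sod-3 call was lost, with adjusted p between 0.0550 and 0.0685, on leaving out null replicate 1, 2 or 4 or granulin 3 replicate 1 or 3. It was also lost on the deposited scale (0.123), without the 5 low-slope libraries (0.0747) and with protein-coding genes only (0.0530). Of 10 class II targets 2 rose, dod-19 (1.58 ± 0.31, adjusted p = 0.00199) and dod-20 (1.35 ± 0.37, adjusted p = 0.0182), of which dod-20 lost its call without null replicate 3 (0.0519) or 4 (0.0582) or granulin 3 replicate 4 (0.0632). Of 24 DAF-16 regulators 2 rose. pqm-1, the zinc-finger factor tied to class II targets, had 22.02, 25.3, 27.6 and 16.4 CPM against 10.5, 9.72, 7.44 and 9.50 (1.28 ± 0.26, adjusted p = 0.00237). The GATA factor elt-3 (1.06 ± 0.33, adjusted p = 0.0396) lost its call under 6 of the settings that leave out 1 library: without null replicate 2 (0.230), 3 (0.152) or 4 (0.0731), or granulin 3 replicate 1 (0.114), 2 (0.0525) or 4 (0.0933). It was also lost with median-of-ratios scaling (0.0586), with protein-coding genes only (0.0710) and with no filter on low genes (0.10). Of the ligands 7 rose and 0 fell, led by daf-28 (3.00 ± 0.72, adjusted p = 0.00781), an agonist of DAF-2, ins-26 (2.95 ± 0.41, adjusted p = 0.000137) and ins-37 (2.91 ± 0.58, adjusted p = 0.00227). None of the 10 kinase-side regulators was called (0 at an unadjusted p under 0.05, beside 3820 of all 15737 genes). The nearest was sinh-1 (-0.59 ± 0.29, adjusted p = 0.217).

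Granulin 3 was also compared directly with granulin 2, and 5.39% of all genes were called (271 higher and 578 lower). These strains lie in different sets of label letters, so a difference between the sets cannot be told apart from one between the strains. sod-5 (-4.90 ± 0.48, SE, limma adjusted p = 1.53e-06), djr-1.2 (-2.99 ± 0.54, adjusted p = 0.00178) and sod-3 (-2.64 ± 0.46, adjusted p = 0.00131) were lower in granulin 3, so 0 of 22 class I targets were higher and 3 lower. Here too sod-5 was in the test only through its high granulin 2 libraries. The list median was -0.79 beside -0.08 over all genes. dod-19 (1.73 ± 0.31, adjusted p = 0.00147) was higher, the single call among 10 class II targets. pqm-1 was higher (1.13 ± 0.26, adjusted p = 0.0112), but not without granulin 3 replicate 3 (0.0539) or without the 5 low-slope libraries (0.222). eak-6 was lower (-2.26 ± 0.58, adjusted p = 0.0253), but not without granulin 3 replicate 1 (0.0733) or 3 (0.0992). No ligand was called (2 at an unadjusted p under 0.05, beside 3171 of all 15737 genes). The nearest was ins-1 (0.90 ± 0.37, adjusted p = 0.170). Granulin 3 against wild type, which share label letters, called 11.2% of all genes (1677 higher and 89 lower). It called 2 class I targets higher and 1 lower, led by lys-7 (4.73 ± 0.67, adjusted p = 8.09e-05). The 1 lower was nnt-1 (-1.19 ± 0.32, adjusted p = 0.0160), which lost its call under 9 of 21 settings. These included the deposited scale (0.489) and the shared label letter as a block (0.18). It also called 2 class II targets higher, led by the ligand ins-7 (2.23 ± 0.53, adjusted p = 0.00601), which is an agonist of DAF-2. The other, dod-20 (1.22 ± 0.37, adjusted p = 0.0340), lost its call under 14 of 20 settings. Also called were 7 ligands higher, led by ins-37 (3.99 ± 0.58, adjusted p = 9.66e-05) and ins-6 (2.69 ± 0.49, adjusted p = 0.000617), and 1 lower. The lower ligand was ins-19 (-4.18 ± 1.197, adjusted p = 0.0242), which lost its call under 4 of 21 settings, each leaving out 1 library. No regulator of either list was called (0 and 2 at an unadjusted p under 0.05). The nearest were shc-1 (-0.82 ± 0.42, adjusted p = 0.297) and pqm-1 (0.60 ± 0.26, adjusted p = 0.180).

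The other commonly used reporters were not called. mtl-1, a metallothionein of class I, ran from 12.7 to 206 CPM in granulin 1 and from 3.64 to 26.5 in granulin 3, beside 13.6 to 20.8 in the null. dod-24, of class II, ran from 25.9 to 191 in granulin 3 and from 17.4 to 55.3 in the null.

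**Figure D4:**
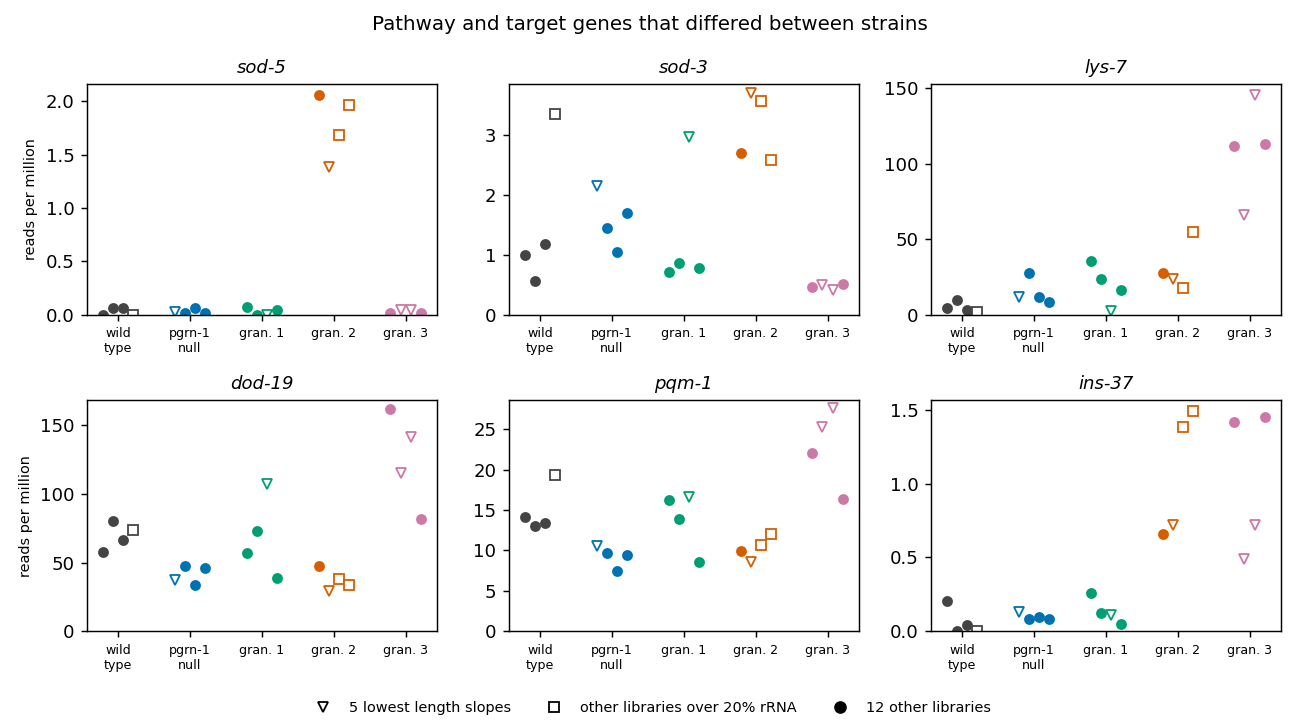
CPM of 6 genes around the core pathway by strain, 1 point per library, symbols as in the plot of the 8 genes. sod-5 is near 0 in every library but the 4 of granulin 2, sod-3 is lowest in granulin 3, and lys-7 is highest in granulin 3. ins-37 is higher in granulin 2 and 3 than in the null.

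Without the 5 low-slope libraries, class I calls in granulin 2 against the null were 2 higher and 0 lower, and in granulin 3 against the null 2 higher and 1 lower. The 1 lower there was not sod-3, which was not called in that setting (-1.40 ± 0.52, SE, limma adjusted p = 0.0747). Without the libraries over 20% ribosomal RNA the class I calls were 2 and 0, and 2 and 4. With the length slope as a covariate they were 7 higher and 1 lower, and 4 higher and 5 lower. Over all alternatives run, the class I calls in either direction came to 1 to 8 in granulin 2 and 2 to 9 in granulin 3. The share of all genes called under each of these settings is not given here, so these counts cannot be set against it. Markers of sperm and of hypodermis and cuticle moved with the same strains. The summed level of 12 sperm markers was 46.8 to 63.2 CPM in granulin 2 and 14.9 to 48.0 in granulin 3, beside 5.73 to 15.3 in granulin 1, 6.77 to 8.60 in the null and 3.68 to 8.02 in wild type. No sperm marker was at 0 in all 20 libraries. Those with reads in every library of a strain numbered 9 of 12 in wild type, 11 in the null, 10 in granulin 1 and 12 in granulin 2 and in granulin 3. Against the null, where 2749 of 15737 genes were called higher in granulin 2 and 1759 in granulin 3, 10 of 11 tested sperm markers rose in granulin 2 and 5 of 11 in granulin 3. Of 7 hypodermis and cuticle markers 4 rose in granulin 2 and 2 in granulin 3. No germline, oocyte or muscle marker was called against the null in either strain. Among the neuron markers snb-1 fell (-1.39 ± 0.39, adjusted p = 0.0130) and unc-17 rose (1.99 ± 0.58, adjusted p = 0.0174) in granulin 2, and none was called in granulin 3. The part of these cell types in the calls above was not tested.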

How the data were processed

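The deposited unit was log2 CPM, 1 table per library with 46778 genes. Per the submitters' processing notes, the authors used STAR, HTSeq, edgeR and limma with genome build ce11, and no versions are given in the sources used here. Per the labels' protocols, a Qiagen miRNeasy kit gave the RNA and a TruSeq Stranded Total RNA kit the libraries. The deposited log2 values shared a floor of -5.05. On the linear scale, values over this floor were multiples of what 1 read is worth: within 0.01 reads, at least 99.9942% per library came out whole, and 7 values did not. Gene positions and exon lengths are those of the Ensembl 115 annotation of this build, in which 46603 IDs were found.

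From the recovered reads, log2 CPM was recomputed with a prior count of 2 and trimmed-mean scaling (trimming 30% of ratios and 5% of levels), for genes at 0.177 CPM or more in 4 libraries and 15 reads in all. limma 3.58.1 in R 4.3.3 with statmod 1.5.0 fitted 5 strain means to all 20 libraries with trend and robust moderation of the variance, and the threshold was a Benjamini-Hochberg adjusted p of 0.05 over 15737 genes. The fit was tested on simulated data. The log scale understates the change of low genes. Summaries and figures used Python 3.11.15 with pandas 2.3.3 and matplotlib 3.10.9. Strains came from the strain label, since the group label named AWK33 for all granulin strains.

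Members and lists were chosen with earlier results of these data known. Named beside the 8 members are, per list and comparison, up to 3 called genes with the largest change, or the gene of smallest adjusted p where none passed, and sod-3, mtl-1 and dod-24 throughout. Alternatives covered scaling, prior count, gene filter, gene set, samples fitted, voom weights, length slope, library exclusions and label letters. The letters in sample names are E, F, G and H in one set (null, granulin 2) and A, B, C and D in the other. If they mark batches, comparisons across these sets cannot be told apart from them. Within-set comparisons are granulin 2 against the null and those among wild type, granulin 1 and granulin 3.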

Additional observations from a re-analysis of the deposited data

Results flagged for a closer look

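On the log2 CPM scale, 13 of 40 groups of 4 libraries of a member held a library far from the other 3, where chance gives about 1 in 20 for a single group. The 40 groups are 8 genes in the same 20 libraries, so they are not independent. All 13 fell in the libraries named next. In the null, replicate 1 stood low for daf-2 (5.53, the others 7.64 to 7.89), age-1 (5.11), akt-1 (6.63), daf-18 (8.54) and daf-16 (5.94). In granulin 1, replicate 3 stood low for daf-2 (2.65, the others 7.54 to 7.95), age-1 (2.37), pdk-1 (1.14), daf-18 (5.93) and daf-16 (4.24). In wild type, replicate 4 stood low for akt-1 (5.36) and daf-18 (7.004) and high for sgk-1 (4.25, the others 2.96 to 3.12). Null replicate 1 and granulin 1 replicate 3 are 2 of the 5 libraries with the lowest length slopes, and wild type replicate 4 had 44.8% ribosomal RNA. The part of either in these values was not tested.

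Among the named pathway genes, a library stood far from its group for ins-19 and sod-3 in granulin 1 replicate 3 (3.83 and 1.58), ins-6 in granulin 1 replicate 2 (-2.87), djr-1.2 and elt-3 in granulin 2 replicate 2 (-0.92 and 3.11), and dod-20 in granulin 3 replicate 4 (-1.53).

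The granulin 2 and granulin 3 strains, which lie in different sets of label letters, differed from each other by the limma test of granulin 3 against granulin 2. They did so for eak-6 (-2.26), pqm-1 (1.13), sod-5 (-4.90), djr-1.2 (-2.99), sod-3 (-2.64) and dod-19 (1.73), log2 differences that are all given above with their errors.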

How the results depend on the processing

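The 8 members were refitted under 33 settings, 20 of which leave out 1 library. Of 215 counts of called members, 196 stayed at 0. The others came to 1 or 2. The share of all genes called under each alternative setting is not given here, so these counts cannot be set against it. With the length slope as a covariate, 1 member was called in granulin 2 against the null, 2 in granulin 3 against the null, 1 in granulin 2 against 1 and 1 in granulin 3 against 2. Without the 5 low-slope libraries, 1 was called in granulin 2 against 1. Without libraries over 20% ribosomal RNA, 1 was called there and 1 in granulin 3 against wild type, and on the deposited scale 1 in granulin 3 against wild type. Leaving out 1 library each, the count in granulin 2 against 1 was 0 to 1. After seeing the data, 2 settings were added. The covariate without the low-slope libraries called 2 members in granulin 2 against the null, age-1 (-0.52) and akt-2 (0.55). It also called 1 in granulin 2 against wild type, 1 in granulin 2 against 1 and 2 by the F test. Leaving out both kinds of library, which leaves granulin 2 with 1 library assumed to vary like the rest, called 2, 1 and 1 in the same comparisons, 1 in granulin 3 against wild type, 1 in granulin 3 against 1 and 2 by the F test.

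Of 449 recomputed member differences, 385 kept direction and side of the threshold, 18 passed it and 46 changed sign, none of them called. For the null against wild type, daf-2 changed sign on the deposited scale (0.26), with the covariate (0.25), without low slopes (0.38), with both (0.34) and without both kinds of library (0.079). pdk-1 did so under the first 4 of these (0.24, 0.14, 0.15 and 0.11), and akt-2 (0.22) and daf-16 (0.0069) on the deposited scale. Without libraries over 20% ribosomal RNA, age-1 (-0.037), akt-1 (-0.45) and daf-18 (-0.23) changed sign, and without both kinds akt-1 (-0.24) and daf-18 (-0.044). Leaving out 1 library each, the null against wild type ran from -0.41 to 0.38 for daf-2, -0.084 to 0.68 for age-1, -0.42 to 0.16 for pdk-1, -0.50 to 0.52 for akt-1 and -0.28 to 0.71 for daf-18.

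daf-18 in granulin 1 against the null became 0.056 without low slopes, 0.33 without high ribosomal RNA, 0.13 with the covariate and no low slopes and 0.12 without both kinds, and ran from -0.98 to 0.36 leaving out 1 library each. daf-2 in granulin 2 against the null, 0.11 as fitted, became -0.12 on the deposited scale, -0.047 with no filter and -0.28 without high ribosomal RNA (-0.44 to 0.72 leaving out 1 library each). Without both kinds of library, which leaves granulin 2 with 1 library, that difference was 0.75. daf-2 in granulin 1 against wild type became 0.26 with the covariate, 0.32 without low slopes, 0.10 without high ribosomal RNA, 0.35 with the covariate and no low slopes and 0.085 without both kinds (-1.45 to 0.32 leaving out 1 library each). In granulin 3 against wild type, akt-1 became -0.10 without high ribosomal RNA and -0.26 without both kinds (-0.10 to 0.89 leaving out 1 library each), and daf-16 became 0.032 on the deposited scale, 0.12 without low slopes and 0.060 with the covariate and no low slopes. The causes were not tested.

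With the shared letter as a replicate block, 0 members were called in the 4 comparisons within a set of letters. The letters were not shown to pair libraries: of 16 same-letter pairs, 8 had deviations correlated above 0.1 (range -0.59 to 0.58). The deposited scale moved the median of all genes by -0.269 to 0.784 between strains, and median-of-ratios scaling by less than 0.1. For 32 named pathway differences, 512 of 575 alternatives kept the call, 63 lost it and 0 changed sign. Settings in which a gene failed the filter on low genes are in neither count, so the tally leaves out settings for low genes. In granulin 2 against the null, sod-5 and djr-1.2 were tested in 13 settings and eak-6 in 12, beside 21 for ins-19. Reads per library limit sod-5, djr-1.2, old-1, eak-6, dod-20 and most ligands.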
